A study of Mus musculus with 12 samples.

Results

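The genes described here are 9 members of the Nrf2 target and glutathione pathway: Nqo1, Hmox1, Gclc, Gclm, Txnrd1, Srxn1, Slc7a11, Gsta4 and Gstm1. They were taken by name, as every probe set whose platform symbol was one of these, and this rule uses no measured value, though the genes were chosen with earlier results of these data known. This gave 18 probe sets of 22626 tested, and 9 genes of 12393 measured. Gclc has 2 probe sets, Txnrd1 has 3, Srxn1 and Gstm1 have 4 each, and the other genes have 1.

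The arrays covered 5 primary keratinocyte cultures, 2 samples of newborn skin and 5 samples of skin from mice aged 30 days. Each culture came from newborn mice, pooled the cells of 5 animals of one genotype, and was not passaged during its time in low-calcium medium, which lasted 3 days or less. Cultures 1 and 2 and all 30-day skin samples were of a mixed background (C57, DBA and FVB). Cultures 3, 4 and 5 and both newborn skin samples were FVB. The labels name no treatment and no engineered allele for these groups. Age and strain cannot be told apart within skin. Whether each skin sample was its own animal is not given in the labels; the p-values rest on the spread among arrays, part of which may be technical. The design text sets tissue against culture and newborn against older animals.

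Nrf2, encoded by Nfe2l2, is a transcription factor that is bound by Keap1 and degraded in unstressed cells. Electrophiles and oxidants modify Keap1, and the Nrf2 that then accumulates pairs with small Maf proteins on antioxidant response elements near genes for glutathione synthesis, conjugation and reduction. In the epidermis this pathway is known for protecting keratinocytes against irritants and ultraviolet light. Slc7a11 brings cystine into the cell, Gclc and Gclm form the rate-limiting enzyme of glutathione synthesis, and Gsta4 and Gstm1 join glutathione to reactive compounds. Txnrd1 and Srxn1 restore thioredoxin and oxidised peroxiredoxins, Nqo1 reduces quinones, and Hmox1 breaks down heme.

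Promoter windows of 300 bases (250 before and 50 after an annotated start) were taken from RefSeq, build GRCm38.p6, for 6 of the 9 genes, 9 windows in all. Both strands were searched for the core letters of the antioxidant response element, TGACNNNGC. The letters were found in 1 window each of Gclm, Txnrd1 and Srxn1, and 12.4% of all 32817 windows hold them. Hmox1, Gclc and Gsta4 had no window and were not searched. The stretches around the matches are shown. Capitals mark the match, which lies on the opposite strand and therefore reads as the reverse complement. In Gclm (chr3:122245307-122245486, plus strand), 125 bases lay between the match and the start that the window was built on. The printed stretch is shorter, as it stops before the gene's first annotated base at 122245487. In Txnrd1 (chr10:82858956-82859205, plus strand, 1 of its 3 windows), 83 bases lay between them. In Srxn1 (chr2:152105542-152105570, plus strand), the match began at base 29 of the transcript.
Gclm: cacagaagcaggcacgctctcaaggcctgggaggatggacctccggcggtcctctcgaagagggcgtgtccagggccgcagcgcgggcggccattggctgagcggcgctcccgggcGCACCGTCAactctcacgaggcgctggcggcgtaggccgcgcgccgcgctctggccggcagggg
Txnrd1: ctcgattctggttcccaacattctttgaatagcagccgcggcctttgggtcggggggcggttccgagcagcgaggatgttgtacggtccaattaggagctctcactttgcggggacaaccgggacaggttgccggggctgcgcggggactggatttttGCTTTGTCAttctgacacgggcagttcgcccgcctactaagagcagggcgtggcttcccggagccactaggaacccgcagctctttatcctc
Srxn1: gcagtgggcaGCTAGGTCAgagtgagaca

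Further letters were searched in the same way. The AP-1 site TGACTCA, which shares its first letters with the core above, occurred at 2 places upstream of Srxn1, with 95 and 38 bases between each and the start. It stands in 5.20% of all windows and overlapped no antioxidant response core here. The letters TGATGNAA, a form of the amino acid response element that Atf4 binds, occurred at 2 places upstream of Slc7a11, with 58 and 39 bases to the start, and stand in 3.97% of all windows. The stretches are from chr2:152105414-152105493 (plus strand) and chr3:50443644-50443688 (minus strand), with the matches in capitals.
Srxn1 upstream: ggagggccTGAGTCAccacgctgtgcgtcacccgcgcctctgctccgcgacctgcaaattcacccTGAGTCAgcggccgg
Slc7a11 upstream: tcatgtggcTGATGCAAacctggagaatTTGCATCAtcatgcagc
A match is a description of the letters. The windows of Nqo1, Slc7a11 and Gstm1 and the other 2 of Txnrd1 do not hold the antioxidant response core letters, which says nothing about these genes beyond those windows.

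All values below are deposited log2 expression values after RMA, which puts the arrays on one distribution. Array medians lay between 5.86 and 6.01. The basal keratinocyte list averaged 10.26 to 10.76 in cultures against 9.02 to 9.36 in skin samples. Of its genes, Krt5 averaged 13.14 and Krt14 13.37 in culture, above both skin ages. Trp63 averaged 8.73 in culture, 8.85 in newborn and 9.03 in 30-day skin. The suprabasal keratinocyte list averaged 6.58 to 7.47 in cultures against 9.78 to 10.23 in skin samples. The fibroblast list averaged 5.41 to 5.996 against 10.91 to 11.47, and the macrophage list 4.84 to 5.26 against 7.35 to 8.16. Melanocyte markers averaged 8.88 and 9.01 in cultures of mixed strain and 7.20 to 7.37 in those of FVB. The 3' actin probe set exceeded the 5' one by 0.21 to 0.74 in the cultures, 0.99 and 1.14 in newborn skin, 0.67 to 0.82 in 30-day replicates 2 to 5 and 1.74 in 30-day replicate 1. By this sign of RNA quality, newborn skin lay above the cultures and 30-day replicates 2 to 5, and below 30-day replicate 1. The cultures lay below newborn skin and overlapped the lower 30-day samples. Its part in the differences between culture and skin and between skin ages was not tested. Several arrays were close pairs: the SD of their differences over all probe sets was 0.16 for cultures 1 and 2, 0.17 for 30-day replicates 2 and 3, 0.18 for 30-day replicates 4 and 5, and 0.20 for both newborn samples, against 0.23 to 0.42 for all other pairs within a group. In these bulk samples, fewer cells of a type and less RNA per cell cannot be told apart.

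Cultured keratinocytes did not differ from skin in one direction across these genes. Each array was also centred on the mean of a list of epithelial cell junction genes, called the junction scale here, which put the median difference of all probe sets between culture and skin at -0.41. The junction genes themselves had a median difference of 0.43 on the deposited values. Gsta4 was higher in culture than in skin on both scales, and Gstm1 and Gclm were lower on both. Srxn1 and Nqo1 were higher than the mean of both skin groups by the deposited values. On the junction scale Srxn1 lost that call and Nqo1 turned to -0.02. Against newborn skin alone, Srxn1 stayed called on the junction scale on 1426875_s_at (0.56) but not on its other probe sets called higher. Gclc, Slc7a11, Txnrd1 and Hmox1 did not pass the test on the deposited values. Counted by probe sets, 5 of 18 were higher and 5 were lower than the equally weighted mean of both skin groups (limma, adjusted p below 0.05, called from here on). Among all probe sets tested, 24.3% were called higher and 18.3% lower in this comparison. On the junction scale 1 was higher and 8 were lower, where 7.99% and 64.2% of all probe sets were called, so the share of members called lower was below that of all probe sets. The median difference was 0.11 over the 18 probe sets and 0.03 over all. Against newborn skin alone, 6 were higher and 4 lower, where 17.6% and 14.7% of all probe sets were called. The counts on the junction scale were 2 and 8, where 3.84% and 71.8% of all were called. Against 30-day skin alone, 1 was higher and 6 were lower, where the shares of all probe sets were 25.1% and 18.2%. With mixed strain on both sides 4 were higher and 5 lower, where 21.4% and 16.2% of all were called. Median centring gave 3 higher, where 7207 of all 22626 probe sets were called. These comparisons share the cultures, so they are not independent of each other.

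**Figure D1:**
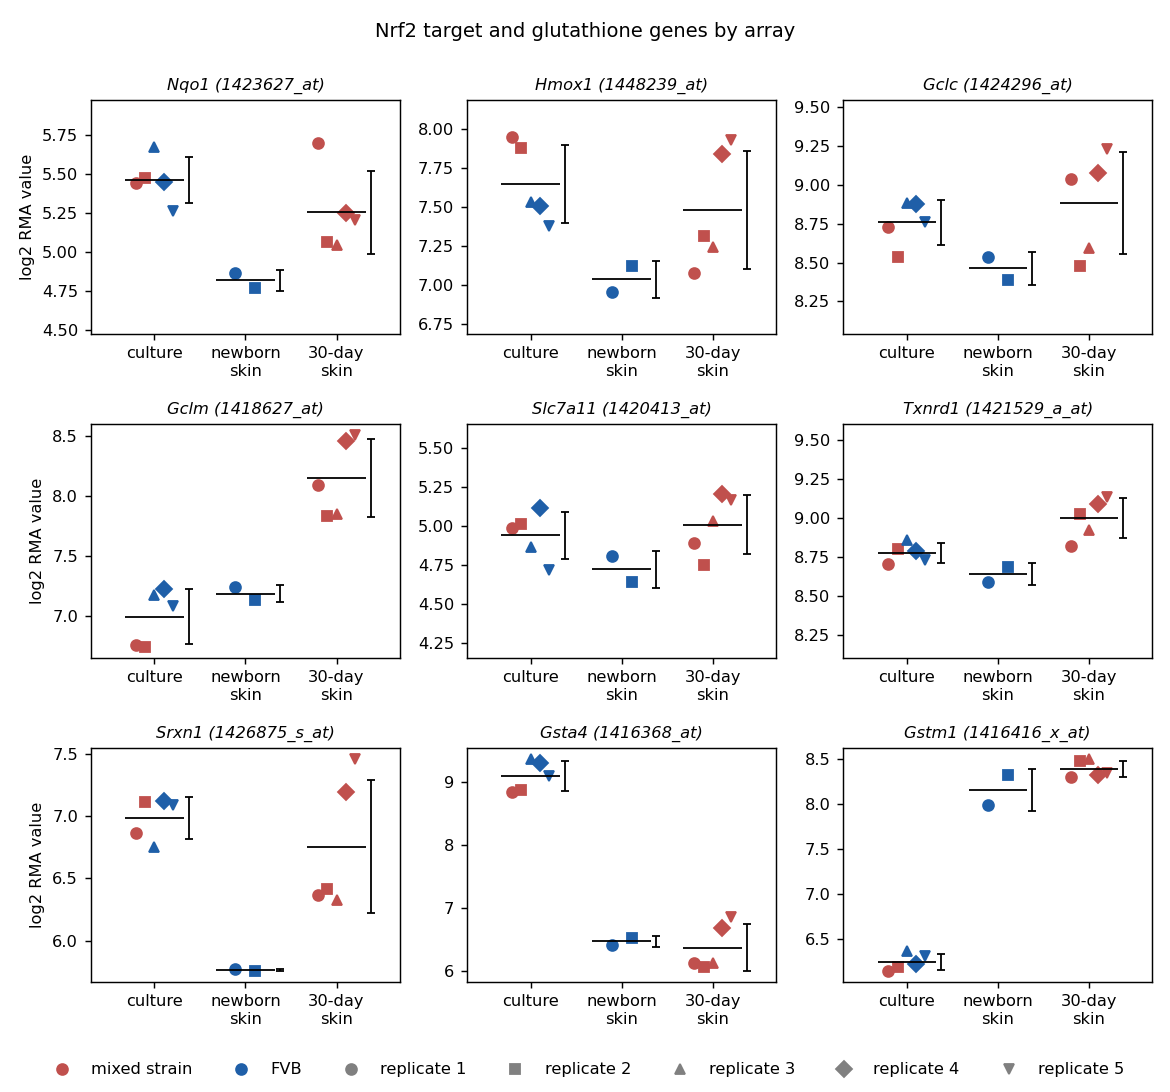
Log2 RMA value (y axis) of each gene, on its probe set with the highest mean, for every array in culture, newborn skin and 30-day skin. Points are arrays, coloured by strain and shaped by replicate number, horizontal lines are group means and bars 1 SD. Gsta4 and Gstm1 separate the cultures from all skin samples in opposite directions, Gclm is highest in 30-day skin, and Srxn1 is lowest in newborn skin.

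Gsta4, a transferase known for conjugating lipid aldehydes such as hydroxynonenal, was the member with the largest rise in culture. Its values were 8.84, 8.87, 9.36, 9.29 and 9.09 in cultures 1 to 5, 6.41 and 6.52 in newborn skin, and 6.12, 6.05, 6.12, 6.68 and 6.84 in 30-day skin replicates 1 to 5. Every culture lay above every skin sample, and within 30-day skin replicates 4 and 5 were the highest. The group means were 9.09 ± 0.24 in culture (SD, n = 5), 6.46 ± 0.08 in newborn skin (SD, n = 2) and 6.36 ± 0.37 in 30-day skin (SD, n = 5). Gsta4 was 6.39-fold higher in culture than in skin, a log2 difference of 2.68 ± 0.16 (SE; limma, adjusted p = 1.11e-08). The difference was 2.63 against newborn skin and 2.73 against 30-day skin. With strain matched, it was 2.78 between FVB cultures and newborn skin and 2.49 between mixed-strain cultures and 30-day skin. Both skin ages differed by -0.10 (95% interval -0.57 to 0.37), which did not pass the test.

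Gstm1, a transferase of the mu class, moved the other way. Probe set 1416416_x_at read 6.14, 6.19, 6.36, 6.22 and 6.31 in the cultures, 7.99 and 8.31 in newborn skin, and 8.30, 8.47, 8.50, 8.32 and 8.34 in 30-day skin. Probe set 1448330_at read 5.76, 5.81, 5.78, 5.59 and 5.74, then 7.43 and 7.65, then 7.73, 7.93, 8.02, 7.80 and 7.76 in the same order. In both, all cultures lay below all skin samples. The first was 4.07-fold lower in culture than in skin (log2 -2.02 ± 0.08, limma adjusted p = 2.52e-10) and the second 3.88-fold lower (log2 -1.96 ± 0.08, adjusted p = 3.09e-10). The other probe sets had smaller differences in the same direction, -0.64 for 1425627_x_at and -0.41 for 1425626_at, again with no overlap between the cultures and skin.

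All 4 Gstm1 probe sets were called lower against newborn skin, against 30-day skin, and in both strain-matched comparisons. The calls of 1425627_x_at and 1425626_at against newborn skin were lost without newborn replicate 1, at -0.47 and -0.27 (limma adjusted p = 0.0672 and 0.299). On close pairs averaged, that of 1425626_at was lost as well (-0.40, 0.167). None of the 4 differed with age by the test, although 1448330_at (0.31, 95% interval 0.07 to 0.55, adjusted p = 0.0923) and 1425627_x_at (0.23, -0.04 to 0.50) had all 30-day samples above both newborn ones. The mu class holds near-identical copies, and the suffix x marks probes that can match other transcripts, so signal may be shared with Gstm relatives. Gstm2, on its own probe set, was 3.13-fold lower in culture. The suprabasal keratinocyte list was also low in culture, at 6.58 to 7.47 against 9.78 to 10.23 in skin. So were the fibroblast, adipocyte, macrophage, skeletal muscle, endothelial and hair lists. The part of these cells in the Gstm1 difference was not tested.

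Gclm, the regulatory subunit of glutamate-cysteine ligase, separated 30-day skin from the rest. It read 6.76, 6.74, 7.17, 7.23 and 7.09 in the cultures, 7.24 and 7.14 in newborn skin, and 8.09, 7.83, 7.85, 8.46 and 8.51 in 30-day skin. Every 30-day sample lay above every other sample, and newborn skin overlapped the cultures. Group means were 6.999 ± 0.23 (SD, n = 5) in culture, 7.19 ± 0.07 (n = 2) in newborn skin and 8.15 ± 0.32 (n = 5) in 30-day skin. Culture was 2.22-fold below 30-day skin (log2 -1.15 ± 0.15, limma adjusted p = 2.72e-05), and this held with mixed-strain cultures alone (-1.40, adjusted p = 2.16e-05). Culture and newborn skin differed by -0.19 (95% interval -0.62 to 0.24), which did not pass the test, and by -0.03 with FVB on both sides. On the junction scale Gclm was called lower than newborn skin too (-0.85, adjusted p = 0.00249). Against the mean of both skin groups the difference was -0.67 ± 0.15 (adjusted p = 0.00182).

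With age, Gclm was 1.95-fold higher at 30 days than in newborn skin (log2 0.96 ± 0.20, limma adjusted p = 0.00654). The call was lost without newborn replicate 1 (1.01, adjusted p = 0.0535) or newborn replicate 2 (0.91, adjusted p = 0.0979), and when close pairs of arrays were averaged (0.95, adjusted p = 0.129).

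Gclc, the catalytic subunit, changed less than its partner. Probe set 1424296_at read 8.73, 8.53, 8.89, 8.88 and 8.76 in the cultures, 8.54 and 8.39 in newborn skin, and 9.04, 8.48, 8.60, 9.07 and 9.23 in 30-day skin. The groups overlapped and no comparison was called. Probe set 1455959_s_at read 7.52, 7.61, 7.998, 7.89 and 7.79, then 7.34 and 7.35, then 8.06, 7.95, 7.53, 7.90 and 8.03. On this probe set both newborn samples were the lowest of all arrays. It was 1.46-fold higher in 30-day than in newborn skin (log2 0.55 ± 0.15, limma adjusted p = 0.0341), while 1424296_at differed by 0.42 (95% interval 0.03 to 0.82, adjusted p = 0.171).

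The age call of 1455959_s_at was lost without either newborn sample (adjusted p = 0.190 and 0.208), without 30-day replicate 2, 4 or 5 (0.0609, 0.0586 and 0.0695), on close pairs averaged (0.253), and on the junction scale (0.12, 0.600). Against newborn skin, culture was 0.42 higher on 1455959_s_at (adjusted p = 0.0532), with no overlap, and this was called without culture 1 or 2 (0.0277 and 0.0470) or 30-day replicate 1 or 3 (0.0477 and 0.0256). With FVB on both sides the difference was 0.55 (adjusted p = 0.00826), while on the junction scale it turned to -0.24 (0.277). Culture and 30-day skin differed by -0.13 on either probe set, and neither passed the test.

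Slc7a11, the cystine carrier of the xc- exchanger, did not separate the groups. It read 4.99, 5.01, 4.86, 5.12 and 4.72 in the cultures, 4.81 and 4.64 in newborn skin, and 4.89, 4.75, 5.03, 5.20 and 5.16 in 30-day skin. The groups overlapped, and no comparison was called. The 95% intervals were -0.15 to 0.29 for culture against skin and -0.01 to 0.59 for 30-day against newborn skin. Slc7a11 turned on the junction scale to -0.37 against skin and -0.45 against newborn skin and was called lower. RMA values carry no detection call, so whether these signals lay above background is not known.

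Srxn1, which reactivates overoxidised peroxiredoxins, was lowest in newborn skin. Probe set 1426875_s_at read 6.86, 7.11, 6.75, 7.12 and 7.09 in the cultures, 5.77 and 5.76 in newborn skin, and 6.37, 6.41, 6.33, 7.19 and 7.46 in 30-day skin. All cultures lay above both newborn samples, and 30-day replicates 4 and 5 lay above every culture while replicates 1 to 3 lay below. Culture was 2.33-fold above newborn skin (log2 1.22 ± 0.27, limma adjusted p = 0.00290) and did not pass the test against 30-day skin (0.23, 95% interval -0.20 to 0.67). The difference from newborn skin was also 1.22 with FVB on both sides (adjusted p = 0.00516). On the junction scale it was 0.56 and still called.

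Other Srxn1 probe sets gave unequal values. Probe set 1451680_at read 7.25, 7.45, 6.93, 6.66 and 6.90 in the cultures, 5.84 and 5.83 in newborn skin, and 5.83, 6.34, 6.34, 7.002 and 7.21 in 30-day skin. It was 1.20 ± 0.30 higher in culture than in newborn skin (limma adjusted p = 0.00724), and 1425351_at was 0.71 ± 0.20 higher (adjusted p = 0.0129), with no overlap on either. The call of 1451680_at was lost without newborn replicate 1 (adjusted p = 0.0582) or 2 (0.0599), and that of 1425351_at without newborn replicate 1 (0.196). On close pairs averaged, these gave 1.13 (adjusted p = 0.0925) and 0.66 (adjusted p = 0.131), and on the junction scale 0.54 (0.0637) and 0.05 (0.798), so both calls were lost. With mixed strain on both sides, culture was above 30-day skin by 0.81 on 1451680_at (adjusted p = 0.0339) and 0.51 on 1425351_at (adjusted p = 0.0363). Without 30-day replicate 5, 1451680_at was called against 30-day skin (0.66, adjusted p = 0.0232).

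Against skin as a whole, culture was higher by 0.73 ± 0.20 on 1426875_s_at (limma adjusted p = 0.00802), 0.85 ± 0.22 on 1451680_at (0.00665) and 0.51 ± 0.14 on 1425351_at (0.0111). All 3 calls were lost on the junction scale, at 0.28, 0.40 and 0.06 (adjusted p = 0.168, 0.0638 and 0.675). That of 1425351_at was also lost without newborn replicate 1 (0.41, 0.0738) and on close pairs averaged (0.50, 0.0655). Probe set 1419942_at was not called in any comparison, with a difference between culture and skin of -0.0012 (95% interval -0.22 to 0.21); on the junction scale it was -0.59 against newborn skin and called lower.

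Between skin ages, Srxn1 was 1.98-fold higher at 30 days on 1426875_s_at (log2 0.99 ± 0.27, limma adjusted p = 0.0292). That call was lost without newborn replicate 1 (0.99, adjusted p = 0.164) or 2 (0.98, 0.201), without 30-day replicate 4 (0.88, 0.0558), and on close pairs averaged (0.92, 0.294). Over all alternative settings, 1426875_s_at was called with age in 15 of 25. The other 3 probe sets differed by 0.71, 0.16 and 0.41 and were not called.

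Txnrd1, the cytosolic thioredoxin reductase, has 3 probe sets. The first, 1421529_a_at, read 8.70, 8.80, 8.86, 8.79 and 8.73 in the cultures, 8.59 and 8.69 in newborn skin, and 8.82, 9.03, 8.92, 9.09 and 9.14 in 30-day skin. All 30-day samples lay above both newborn samples, a 1.28-fold difference (log2 0.36 ± 0.10, limma adjusted p = 0.0369). Culture was 1.17-fold below 30-day skin (log2 -0.22 ± 0.08, adjusted p = 0.0318), with overlapping arrays. The age call was lost without either newborn sample (adjusted p = 0.266 and 0.152) and without 30-day replicate 2, 4 or 5 (0.0650, 0.0720 and 0.0781). The call against 30-day skin was lost without culture 1 or 5 (0.0704 and 0.0611), without 30-day replicate 2, 4 or 5 (0.0631, 0.0745 and 0.0865), with mixed strain on both sides (-0.25, 0.0789), and on close pairs averaged (-0.19, 0.215). On the junction scale 1421529_a_at turned to -0.53 against newborn skin and was called lower, where its difference without that centring was 0.14 and not called.

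The second Txnrd1 probe set, 1424486_a_at, read 6.71, 6.73, 6.42, 5.87 and 5.95 in the cultures, 5.48 and 5.73 in newborn skin, and 5.77, 6.15, 6.33, 6.49 and 6.38 in 30-day skin. Culture was 0.73 ± 0.24 higher than newborn skin (limma adjusted p = 0.0340). With FVB on both sides the difference was 0.47 (adjusted p = 0.0874), and it lost its call without culture 1, 2 or 3 (0.0608, 0.0614 and 0.0595) or either newborn sample (0.240 and 0.0910), on close pairs averaged (0.64, 0.269), and on the junction scale (0.07, 0.779). With mixed strain on both sides, culture was above 30-day skin by 0.50 (adjusted p = 0.0484). The third, 1424487_x_at, had group means of 5.49 in culture, 4.98 in newborn skin and 5.47 in 30-day skin. It was not called in any comparison of the main fit. Over the alternative settings it was called against newborn skin in 3 of 24 for culture and 2 of 23 for 30-day skin. Without 30-day replicate 1 it was called higher than newborn skin in culture (0.50, adjusted p = 0.0475) and at 30 days (0.61, 0.0450).

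Nqo1, a quinone reductase often used as a readout of Nrf2, read 5.44, 5.48, 5.68, 5.45 and 5.26 in the cultures, 4.87 and 4.77 in newborn skin, and 5.70, 5.07, 5.05, 5.25 and 5.21 in 30-day skin. Every culture lay above both newborn samples. The signal was dim: it exceeded 38.7% of probe sets on an array in culture, 20.3% in newborn skin and 30.9% in 30-day skin, on average. Among 30-day samples, replicate 1 was the highest, above all cultures. Culture was 1.34-fold above skin as a whole (log2 0.42 ± 0.12, limma adjusted p = 0.00928) and 1.56-fold above newborn skin (0.64 ± 0.16, adjusted p = 0.00672). FVB cultures and newborn skin also differed by 0.64 (adjusted p = 0.0112). On the junction scale both differences turned, to -0.02 each, and on close pairs averaged the first lost its call (0.39, adjusted p = 0.112).

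Against 30-day skin, Nqo1 was 0.21 higher in culture (95% interval -0.06 to 0.47), which was not called, and without 30-day replicate 1 the difference was 0.32 (limma adjusted p = 0.0127). The call against newborn skin was lost without newborn replicate 2 (0.59, adjusted p = 0.0754) and on close pairs averaged (0.64, adjusted p = 0.109). Skin at 30 days was 0.44 above newborn skin on Nqo1 with no overlap (95% interval 0.09 to 0.78, adjusted p = 0.101), which was not called.

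Hmox1, heme oxygenase, read 7.95, 7.88, 7.53, 7.50 and 7.38 in the cultures, 6.95 and 7.12 in newborn skin, and 7.07, 7.31, 7.24, 7.84 and 7.93 in 30-day skin. The cultures lay above both newborn samples and overlapped 30-day skin, where replicates 4 and 5 were again the highest. No comparison was called: culture was 0.39 above skin (95% interval 0.04 to 0.75, limma adjusted p = 0.0730) and 0.61 above newborn skin (0.13 to 1.10, adjusted p = 0.0521). The call against newborn skin was gained without culture 5 (adjusted p = 0.0399) or without 30-day replicate 1, 4 or 5 (0.0331, 0.0444 and 0.0348), and with FVB on both sides the difference was 0.44 (adjusted p = 0.142). Against skin as a whole it was gained without 30-day replicate 4 (0.0428) or 5 (0.0298), and on the junction scale the difference was -0.06. Macrophages are known to make Hmox1. The macrophage list averaged 4.84 to 5.26 in culture, 7.35 and 7.38 in newborn skin and 7.80 to 8.16 in 30-day skin. Of its genes, Cd163 averaged 5.15 in newborn and 6.42 in 30-day skin, while Mrc1 averaged 8.55 and 8.18. The part of these cells in the skin values of Hmox1 was not tested.

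**Figure D2:**
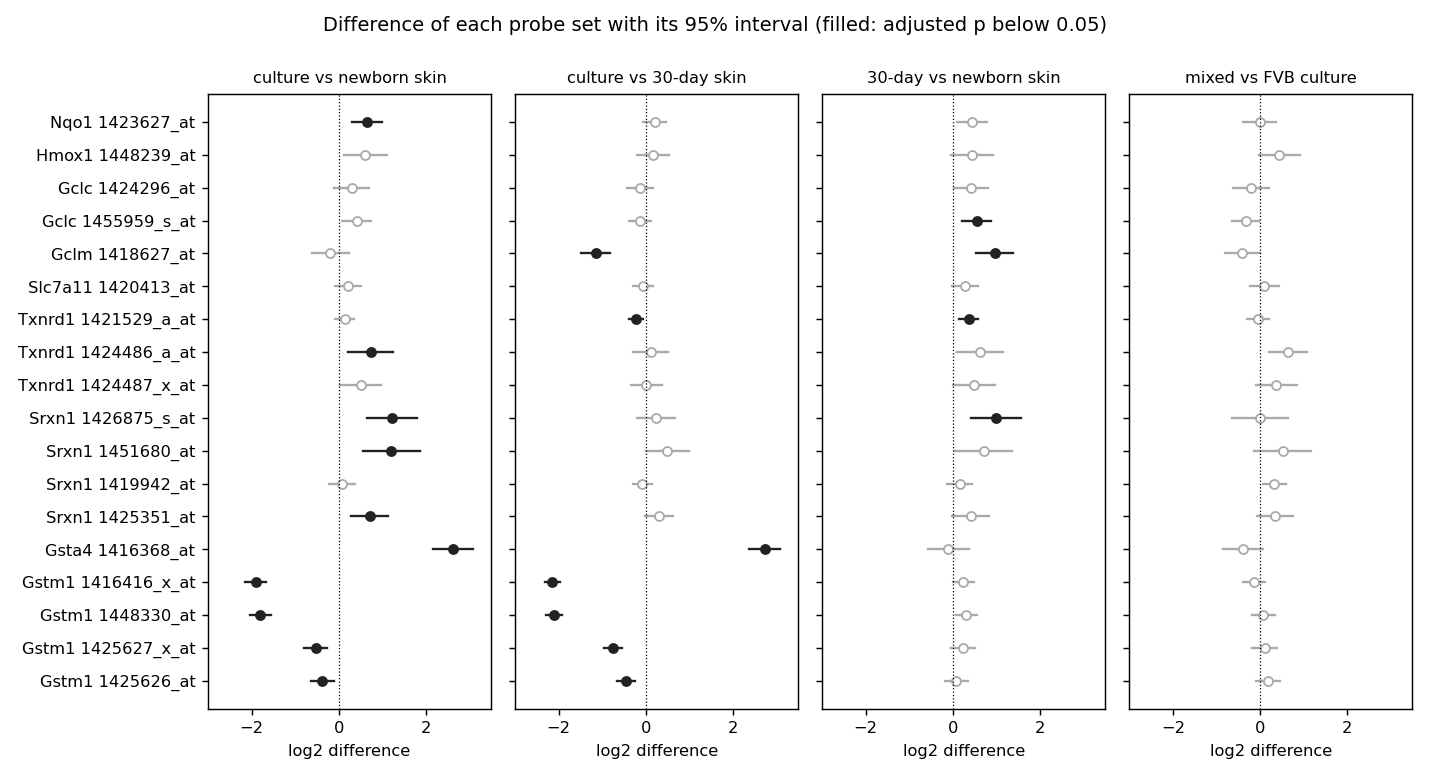
Log2 difference (x axis) of each of the 18 probe sets in 4 comparisons, the first group minus the second, with 95% intervals from limma. Filled points passed the adjusted p of 0.05 and open points did not. Against newborn skin 6 probe sets were higher in culture and 4 lower (2 and 8 on the junction scale), against 30-day skin 1 was higher and 6 lower, 30-day skin had 4 higher and none lower than newborn skin, and no probe set passed between culture strains.

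Between skin ages, every called probe set was higher at 30 days on the deposited values. The genes were Gclm, Srxn1, Gclc and Txnrd1, by 1 probe set each, as given above. That is 4 of 18 probe sets higher and 0 lower by limma, where 4.75% of all probe sets were called higher and 7.36% lower. At an unadjusted p below 0.05 the counts were 10 higher and 0 lower, and on the junction scale 2 and 2. The share of all probe sets at an unadjusted p was not counted, here or below. The median difference was 0.41 over the 18 and 0.0040 over all probe sets, and Gsta4 alone had a negative difference, -0.10, on the deposited values. On the junction scale, where the median of all was -0.42 and 1.62% of all probe sets were called higher and 48.0% lower, only Gclm was called (0.53, adjusted p = 0.0489), Srxn1 1426875_s_at was 0.56 without a call, and Txnrd1 1421529_a_at turned to -0.07. Strain differs between these groups in the same way as age. With strain as a covariate, 2 of the 18 were called higher, where 871 of all 22626 probe sets were. Over the alternative settings Gclm was called with age in 21 of 25 and Srxn1 1426875_s_at in 15 of 25. Gclc 1455959_s_at was called in 13 of 24 and Txnrd1 1421529_a_at in 11 of 25. Cell type markers moved between the ages too: the skeletal muscle list averaged 8.76 and 8.78 in newborn skin against 10.43 to 11.15 at 30 days, the hair list 10.96 in both newborn samples against 12.09 to 12.58, and the melanocyte list 8.25 and 8.29 against 8.87 to 9.37. The macrophage list went from 7.35 and 7.38 to 7.80 to 8.16, and the endothelial list was lower, 5.84 to 5.95 at 30 days against 6.59 and 6.65. Their part in these differences was not tested.

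Replicates of 30-day skin differed among themselves. Replicates 4 and 5 were the highest 2 of the 5 on 11 of 18 probe sets: those of Gclm, Hmox1, Gsta4, Slc7a11 and Txnrd1, Gclc 1424296_at, and the Srxn1 probe sets other than 1419942_at. They were not on Nqo1, the Gstm1 probe sets, Gclc 1455959_s_at or Srxn1 1419942_at. Replicates 4 and 5 were also a close pair over all probe sets. How many of all probe sets had these replicates highest was not counted, so the 11 of 18 cannot be set against a share. In these replicates the hair shaft and root sheath list averaged 12.55 and 12.58, against 12.09 to 12.25 in replicates 1 to 3, the adipocyte list 8.98 and 9.02 against 9.60 to 9.61, skeletal muscle 10.44 and 10.43 against 10.96 to 11.15, and fibroblast 10.91 and 10.92 against 11.15 to 11.47. The part of these cell types was not tested. Without replicate 1, whose actin probe sets stood apart, 7 probe sets were called higher at 30 days, where 1440 of all 22626 were. The added ones were Txnrd1 1424486_a_at (0.73), Txnrd1 1424487_x_at (0.61) and Srxn1 1451680_at (0.89). Without newborn replicate 1 or 2, Gclm was 1.01 or 0.91 higher at 30 days, and Srxn1 1426875_s_at 0.99 or 0.98. These fits, and the fit with close pairs averaged, leave 1 newborn sample. The member calls with age were lost in them, and calls over all probe sets became fewer too.

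**Figure D3:**
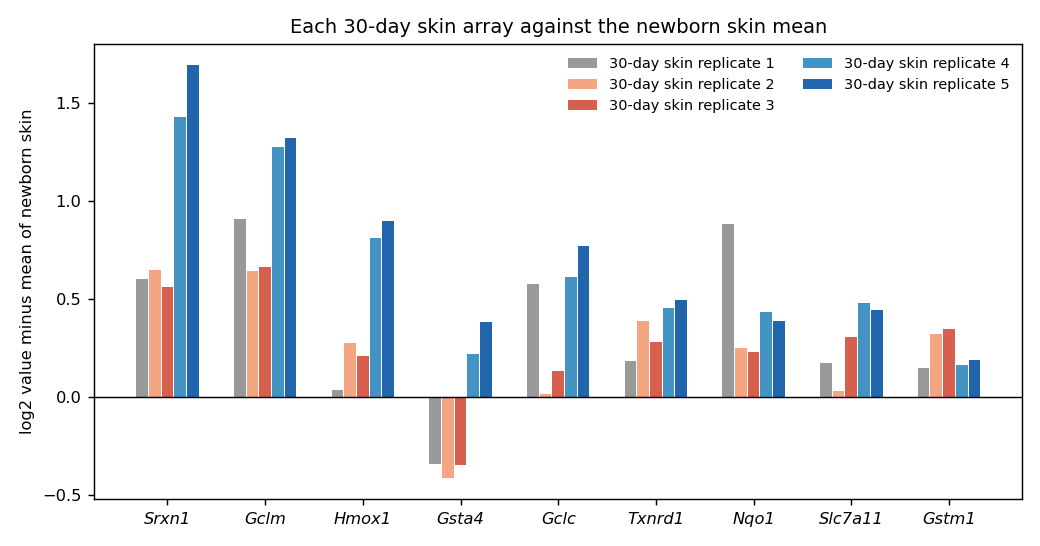
Log2 value of each 30-day skin array minus the mean of newborn skin (y axis) for the 9 genes, on the probe set with the highest mean. Bars are the 5 arrays, with no error since each is 1 array. All genes but Gsta4 are above the newborn mean in every array, some only slightly. Replicates 4 and 5 give the highest values of Srxn1, Gclm, Hmox1, Gsta4, Gclc, Txnrd1 and Slc7a11, but not of Nqo1 and Gstm1.

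Within culture, strain gave no called difference in these genes in the fit over all arrays. Of 18 probe sets, 0 were higher and 0 lower in mixed-strain than in FVB cultures by limma, where 3.91% and 5.30% of all probe sets were called. At an unadjusted p below 0.05 there were 2 higher and 2 lower. With array weights 2 were called higher and 1 lower, where 2289 and 2673 of all 22626 probe sets were called. With only the cultures in the fit the counts were 4 and 1, where 1468 and 1832 of all were called. With the replicate block 3 were called higher, where 587 of all were. The largest difference was that of Txnrd1 1424486_a_at (0.64 ± 0.20, adjusted p = 0.0641). Hmox1 was 0.44 higher in mixed-strain cultures with no overlap (95% interval -0.02 to 0.91), and Gclm was 0.41 lower with no overlap (-0.81 to -0.0041). Cultures 1 and 2 also had the higher melanocyte markers, whose part was not tested.

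Nfe2l2, which encodes Nrf2, was itself higher in culture. It read 8.86, 8.80, 9.61, 9.49 and 9.53 in the cultures, 8.03 and 7.90 in newborn skin, and 8.10, 7.97, 7.72, 7.79 and 7.96 in 30-day skin. All cultures lay above all skin samples, a 2.50-fold difference (log2 1.32 ± 0.15, limma adjusted p = 9.04e-06). Mixed-strain cultures were 1.64-fold below FVB cultures (log2 -0.71 ± 0.12, adjusted p = 0.00274), while no member was called on strain; on close pairs averaged this call was lost (adjusted p = 0.106). Skin ages differed by -0.06 (95% interval -0.51 to 0.39), whereas 4 members were higher at 30 days. With strain as a covariate, whose effect comes from the cultures alone, the age difference of Nfe2l2 became 0.66 (adjusted p = 0.0235). The arrays measure the RNA, and the amount or place of the protein was not measured.

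Keap1, the adaptor that holds Nrf2 for degradation, gave unequal probe sets: 1450746_at was 1.36-fold lower in culture than in skin (log2 -0.45 ± 0.16, limma adjusted p = 0.0378) and 1450747_at was 0.15 higher, which was not called. The first call was lost without any one of cultures 1, 2, 3 and 5, 30-day replicates 2 and 3 and newborn replicate 2, with adjusted p from 0.0537 to 0.177, and on close pairs averaged (0.131). Bach1, a repressor known for holding down Hmox1, was higher in culture on 1440831_at (0.76 ± 0.23, adjusted p = 0.0168) and 1449311_at (0.79 ± 0.27, adjusted p = 0.0279). The call of 1440831_at was lost without culture 3 (0.63, adjusted p = 0.0506) or newborn replicate 2 (0.70, 0.0671), and on the junction scale (0.31, 0.279).

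Other genes of the pathway were counted from lists chosen by function, 1 probe set per gene. Among all 12393 genes so represented, 24.2% were higher and 22.0% lower in culture than in skin, and 5.46% were higher and 8.91% lower in 30-day than in newborn skin. Beside each split the split on the junction scale is given, where 7.92% of all genes were higher and 66.1% lower in culture, and 1.90% higher and 50.8% lower at 30 days. In the list of other Nrf2 targets, 9 of 25 measured genes were higher in culture and 5 lower (5 and 14 on the junction scale), with a list median of 0.02 against 0.01 for all genes. Akr1b8, an aldo-keto reductase, was 3.39-fold higher, and Ephx1, an epoxide hydrolase, was 2.35-fold higher. Blvrb, a biliverdin reductase, was 2.54-fold lower, and Aldh3a1, an aldehyde dehydrogenase, was 2.22-fold lower.

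Of 26 genes of glutathione synthesis and recycling, 13 were lower and 6 higher in culture (20 and 2 on the junction scale), with a list median of -0.52. Gpx3, a secreted glutathione peroxidase, was 7.44-fold lower, and Anpep, a peptidase, was 4.63-fold lower. Glo1, which clears methylglyoxal with glutathione, was 3.09-fold higher. Other glutathione S-transferases gave 9 lower and 2 higher of 19 (16 and 2), with a median of -0.24. Mgst3 and Mgst1, microsomal transferases, were 5.005-fold and 4.41-fold lower, while Gsto1 was 5.92-fold higher and Hpgds, a prostaglandin D synthase, 2.57-fold higher. Gsta4, like Gsto1, was higher in culture beside a list in which most called genes were lower.

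Thioredoxin and peroxiredoxin genes gave 6 higher and 6 lower of 20 (1 and 13), with a median of -0.19. Txnip, an inhibitor of thioredoxin, was 3.44-fold lower and Txnrd3 was 1.94-fold higher, which lost its call on the junction scale (0.51, adjusted p = 0.0527). In the list of the amino acid response driven by Atf4, which also drives Slc7a11, 15 of 26 were higher and 4 lower (9 and 9), with a median of 0.52. Asns, asparagine synthetase, was 4.01-fold higher, while Slc7a11 did not pass the test and its partner chain Slc3a2 was 1.49-fold lower. Heme and iron genes gave 7 higher and 5 lower of 19 (2 and 12), with Tfrc, the transferrin receptor, 2.89-fold higher and Slc40a1, the iron exporter, 5.80-fold lower. Aryl hydrocarbon receptor genes gave 3 higher and 4 lower of 9 (2 and 6), with Tiparp 2.60-fold higher and Cyp1b1 1.80-fold lower. Of 14 Nrf2 regulators, 6 were higher and 3 lower (2 and 5), with Bach2 8.51-fold lower.

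Between skin ages, glutathione synthesis and recycling had 10 of 26 genes higher and 4 lower at 30 days (7 and 11 on the junction scale), with a median of 0.26 against -0.01 for all genes. Gpx3 was 4.67-fold higher, Cth, which makes cysteine, was 4.46-fold higher, and Chac1, which degrades glutathione, was 2.85-fold higher. Gpx7 was 2.87-fold lower. The call of Chac1 was lost without newborn replicate 1 or 2 (adjusted p = 0.135 and 0.115). Other Nrf2 targets gave 6 higher and 2 lower of 25 (3 and 9), with Gpx2 2.65-fold higher, Me1, malic enzyme, 2.38-fold higher and Ces2g 3.44-fold lower. Without newborn replicate 1 the calls of Gpx2 (0.109) and Ces2g (0.0513) were lost, and without newborn replicate 2 that of Ces2g (0.0825). The calls are fewer on close pairs averaged, with 1 higher and 0 lower in the glutathione list and 1 and 1 among other Nrf2 targets. The other lists gave 1 higher and 2 lower for transferases, against 0 and 7 on the junction scale, 2 and 2 for thioredoxin genes, against 0 and 9, and 6 and 3 for the Atf4 list, against 2 and 13. Heme and iron genes gave 3 and 3, against 1 and 8, the aryl hydrocarbon receptor list 2 and 2, against 1 and 4, and regulators 1 and 1, against 0 and 4.

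**Figure D4:**
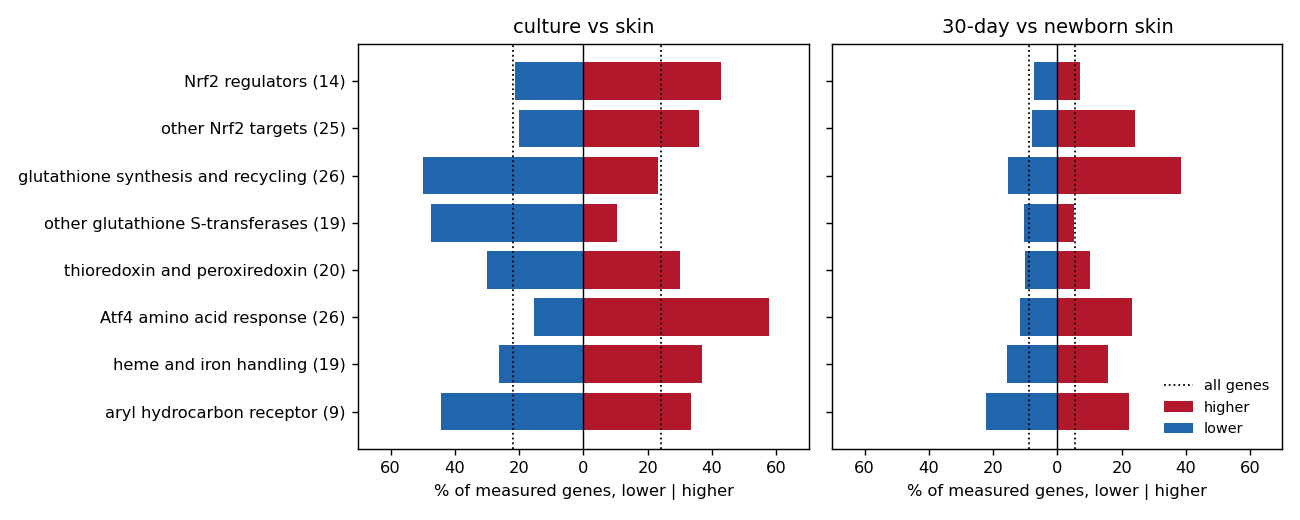
Share of measured genes (x axis, percent) in each list that were called higher (right, red) or lower (left, blue) in culture against skin and in 30-day against newborn skin. Numbers in brackets are measured genes, and dotted lines the shares over all genes. In culture, 13 of 26 glutathione genes were lower (20 on the junction scale) and 15 of 26 Atf4 genes higher (9); at 30 days, 10 of 26 glutathione genes were higher and 4 lower (7 and 11).

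Likeness over the 12 arrays was measured as the root mean square gap between values centred on each gene's own mean, on the log2 scale. The nearest genes were Rras2 (0.24) and Olr1 (0.26) for Gsta4, Rasl11b (0.13) and Cox6a2 (0.17) for Gstm1, and Mknk1 (0.14) and Kif21a (0.16) for Gclm. For Srxn1 they were Sh3yl1 (0.15) and Strn (0.24), and for Hmox1 Gabarapl2 (0.12) and Ttc14 (0.14). For Gclc, Slc7a11, Txnrd1 and Nqo1 the nearest were Ankhd1 (0.08), Gria2 (0.09), H2-M9 (0.06) and Tnrc18 (0.12), though genes with little variation are near many others. No member had another member among its 2 nearest genes. The closest such pair by rank was Srxn1 with Hmox1, at a gap of 0.31 and rank 20. The arrays share groups, strains and close pairs, so these gaps describe these 12 arrays.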

How the data were processed

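Expression was measured on 12 Affymetrix arrays, 1 per RNA sample, and groups came from the sample titles. The deposited log2 values were made by RMA, per the submitters' processing notes. The RMA version is not given in the sources used here. RMA corrects background, makes array distributions alike and summarises probes, so a broad change in cell makeup can shift single genes. Of 22690 probe sets, 64 controls were left out and 22626 tested; no sample column was left unused.

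Differences were fitted in limma 3.58.1 (R 4.3.3; lmFit and eBayes, two-sided) over all 12 arrays with a mean per group, and a second fit split the cultures by strain. The p-values were adjusted by Benjamini-Hochberg over all probe sets, with a threshold of 0.05. Errors of differences are SEs, intervals cover 95%, and errors of means are SDs. The number of arrays limits the precision, and the fits were tested on simulated data. The members and lists were chosen with earlier results of these data known. All member probe sets are named, with Nfe2l2, Keap1 and Bach1. From each list up to 3 called genes with the largest difference in each direction could be named, on the probe set with the highest mean, and for each member the 2 most alike genes. Promoter sequences are those of RefSeq, GRCm38.p6. Alternatives covered scaling, filtering, thresholds, array weights, strain, the replicate block, samples and leaving out each array; averaging close pairs and the list counts under these settings were added after seeing the data. Figures were drawn with Python 3.11.15 and matplotlib 3.10.9.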

Additional observations from a re-analysis of the deposited data

How the results depend on the processing

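Counts of member probe sets called higher or lower moved as follows. With 1 probe set per gene, culture against skin had 3 higher and 2 lower, since fewer probe sets were tested. Culture against newborn skin had 1 lower, and culture against 30-day skin 3 lower. Of all 12393 genes, 3054 were higher and 2775 lower against skin, 2299 lower against newborn skin and 2709 lower against 30-day skin. On epithelial junction centring the counts were 1 higher and 8 lower against skin, 2 and 8 against newborn skin, and 1 higher with age. Of all 22626 probe sets, 1807 and 14532, 869 and 16240, and 367 were called in the same order. That setting also turned Nqo1 to -0.024 against skin and -0.020 against newborn skin, Slc7a11 to -0.37 and -0.45, Txnrd1 1421529_a_at to -0.53 against newborn skin and -0.067 with age, and Srxn1 1419942_at to -0.59 against newborn skin; it moved the median of all probe sets to -0.41, -0.62, -0.20 (against 30-day skin) and -0.42 (age). A floor of 2-fold gave 1 higher and 2 lower against skin, and 3 and 2 against newborn skin. It gave 3 lower against 30-day skin and 0 higher with age. Of all 22626 probe sets, 1014 and 1338, 1150 and 1430, 1335, and 327 were called in the same order. Averaging close pairs left 1 newborn sample. Fewer were then called higher against skin, against newborn skin and with age, among the members and among all probe sets alike. Against 30-day skin, the higher count was 2 with quantile normalisation, 3 with median centring and 2 with array weights. It was 4 with strain as a covariate or mixed strain on both sides. Of all 22626 probe sets, 5756, 7207, 5714 and 4831 were called higher there, against 5689 in the main fit. With age, the higher count was 2 with median centring, 10 with array weights and 1 at a threshold of 0.01. It was 2 with the strain covariate and 2 with only the groups compared. Among all 22626 probe sets, 970, 2243, 474, 871 and 1092 were called higher in these settings, against 1074 in the main fit. Between culture strains the higher count was 2 with array weights and 4 with only the groups compared, where 2289 and 1468 of all were called. The lower count was 1 in both, where 2673 and 1832 of all were called. The cause of changes under median centring, array weights and the strain covariate was not tested.

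With the replicate block, the higher counts were 1 with age and 3 between culture strains. Of all probe sets, 691 and 587 were called higher there. Deviations of same-numbered samples from their group means had correlations from -0.28 to 0.20. Culture strain and the close pairs also enter these deviations, so they cannot decide whether the numbers pair the samples.

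Leaving out each array in turn gave 3 to 9 higher and 2 to 4 lower against newborn skin, 1 to 2 higher against 30-day skin, 0 to 7 higher with age and 0 to 1 higher between culture strains. The 9 higher against newborn skin and 7 higher with age came without 30-day replicate 1, where 4322 and 1440 of all 22626 were called. The low ends with newborn skin came from fits with 1 newborn sample, where fewer of all probe sets were called too. Against 30-day skin, 5217 to 5660 of all were called higher. The strain covariate turned Nfe2l2 with age to 0.66. The 2 newborn samples limit every comparison that uses them, and RMA values do not show which signals lay above background.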
